A study of Sus scrofa with 6 samples.

Results

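MOS and 6 genes of the MAP kinase cascade, MAP2K1, MAP2K2, MAPK3, RPS6KA1, RPS6KA3 and BRAF, were followed through the transcriptomes of single pig oocytes. The genes were chosen by name and found by their pig gene IDs, and all 7 were among the 19300 genes of the deposited files. The libraries came from 3 BCB-positive and 3 BCB-negative oocytes, each library holding a single oocyte at the germinal vesicle stage, before any maturation culture. BCB stands for brilliant cresyl blue. Growing oocytes tend to reduce this dye to a colourless form, so that oocytes which keep the colour (BCB-positive) are generally taken as fully grown and those which lose it (BCB-negative) as still growing. All 6 were aspirated from follicles of 3 to 6 mm, in complexes with at least 3 layers of cumulus cells, and were freed of cumulus and zona pellucida before lysis. The labels name no animal, breed, age or culture for any oocyte. Each class therefore counted as 1 sample of 3 cells, and no test between classes was made. Differences are described by the values of every oocyte, the SD between oocytes and whether the classes overlapped.

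The cascade passes a signal through kinases that switch each other on. In most cells RAS activates the RAF kinases, among them BRAF, which phosphorylate the MAP kinase kinases MAP2K1 and MAP2K2 (MEK1 and MEK2). These activate MAP kinases of the ERK type, among them MAPK3 (ERK1), which in turn activate the ribosomal S6 kinases of the RSK family, including RPS6KA1 and RPS6KA3. In vertebrate oocytes MOS, a kinase of the germ line, takes the place of RAF as the activator of the MAP kinase kinases. Its mRNA is stored in the growing oocyte and the protein is made when meiosis resumes, after which the cascade helps to hold the egg at the second metaphase. The values here are levels of mRNA captured through its poly(A) tail, and say nothing of protein or kinase activity.

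The libraries summed to between 7122749 and 9238987 expected counts. BCB-positive oocyte 3 stood apart, with a mean Pearson correlation to the other oocytes, across genes, of 0.874 against 0.905 to 0.915 for the rest. Its FPKM values (fragment counts scaled to transcript length and library depth) summed to 668430, and those of the other oocytes to between 784781 and 811744. Of 12 oocyte markers, 11 were matched in the files, led by ZP3 of the zona pellucida, and their summed level ran from 13083 to 25581 FPKM in BCB-positive oocytes and from 18119 to 29482 FPKM in BCB-negative oocytes. Markers of other cells were low, and the sums of 2 of their 3 lists lay apart between the classes, through few genes. The cumulus and granulosa list, with 8 of 15 genes matched and HSD17B1 the most abundant, summed to 2.54 to 6.33 FPKM in BCB-positive and 0.43 to 1.83 FPKM in BCB-negative oocytes. HSD17B1 (1.64 to 2.25 against 0.15 to 1.31 FPKM) and STAR (0.40 to 1.79 against 0.05 to 0.37 FPKM) lay apart. The other matched genes of that list overlapped. The gene IDs of the granulosa genes FSHR, FOXL2, NR5A1 and LHCGR were matched in none of the files, which does not show that their mRNA was lacking, since many IDs of the files had no match in the newer gene table. Blood and immune markers, 3 of 6 matched and led by CD3E, summed to 2.93 to 5.13 FPKM in BCB-positive and 0.90 to 2.21 FPKM in BCB-negative oocytes. Of these, CD3E alone lay apart, at 2.37 to 4.6 FPKM against 0.11 to 1.19 FPKM. CD14 reached 0.59 FPKM in BCB-positive and 1.65 FPKM in BCB-negative oocytes. PTPRC was listed only in BCB-positive oocyte 3, at 0.56 FPKM. The theca and stroma list, 5 of 7 matched and led by DCN, overlapped, at 0 to 3.33 FPKM in BCB-positive and 0.85 to 3.22 FPKM in BCB-negative oocytes. The part of these cells in the differences that follow was not tested.

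MOS was one of the most abundant mRNAs of every oocyte, and its level did not separate the classes. In the order of oocytes 1, 2 and 3, which all lists of values keep, MOS had 3733, 2073 and 1780.3 FPKM in BCB-positive oocytes, against 1971, 2418 and 3356 FPKM in BCB-negative oocytes. The highest oocyte was BCB-positive 1 and the lowest BCB-positive 3, so the range of BCB-negative oocytes fell inside that of BCB-positive oocytes. The class means were 2529 ± 1053 FPKM in BCB-positive and 2581 ± 707 FPKM in BCB-negative oocytes (SD, n = 3 oocytes each). On the log2(FPKM + 1) scale the BCB-positive minus BCB-negative difference was -0.07, with a pooled SD between oocytes of 0.48. Its sign was not stable, at -0.17 under size factors against 0.02 after scaling every library to a common sum, and it ran from -0.39 without BCB-positive oocyte 1 to 0.14 without BCB-positive oocyte 3. MOS took 0.604%, 0.332% and 0.289% of all counts in BCB-positive oocytes and 0.316%, 0.388% and 0.541% in BCB-negative oocytes. Ranked by FPKM it was gene 17, 32 and 32 in BCB-positive oocytes and gene 37, 32 and 19 in BCB-negative oocytes. With 24084 to 47196 counts an oocyte, all whole numbers to within 0.005, counting error was small beside the 2.10-fold spread between the highest and lowest oocyte. The deposited annotation gave MOS a single transcript of 1675 bases. It overlaps an uncharacterised gene in the Sscrofa11.1 gene table, whose ID was matched in none of the files.

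**Figure D1:**
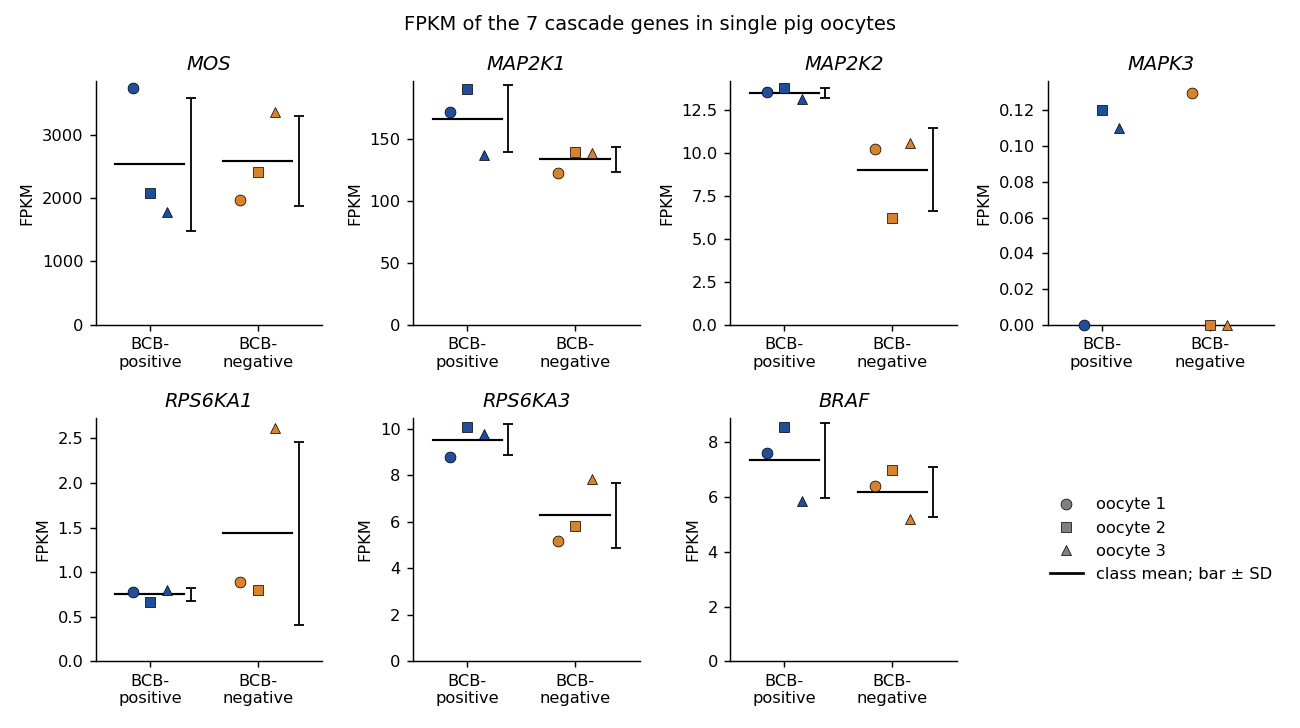
FPKM of each cascade gene in every oocyte, on a linear axis from 0 with its own scale per gene; points are oocytes, horizontal lines class means and bars ± SD (n = 3 oocytes), with no mean drawn for MAPK3, which had at most 1 count in an oocyte. MAP2K2 and RPS6KA3 are the genes whose BCB-positive oocytes all lie above the BCB-negative ones, while MOS varies as much within a class as between classes.

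Between the MAP kinase kinases, MAP2K1 was the abundant gene in every oocyte. MAP2K1 stood at 172, 190.3 and 137 FPKM in BCB-positive oocytes, against 122, 139.6 and 138.8 FPKM in BCB-negative oocytes. BCB-positive oocytes 1 and 2 lay above all BCB-negative oocytes, and BCB-positive oocyte 3 lay just under BCB-negative oocytes 2 and 3, so the classes overlapped. The log2 difference was 0.30 (pooled SD 0.19), and 0.44 without BCB-positive oocyte 3, where the classes no longer overlapped.

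MAP2K2 was far lower than MAP2K1, and its classes were apart. MAP2K2 had 13.5, 13.8 and 13.2 FPKM in BCB-positive oocytes, against 10.24, 6.24 and 10.6 FPKM in BCB-negative oocytes. All 3 BCB-positive oocytes lay close together and above every BCB-negative oocyte. The means were 13.5 ± 0.31 FPKM in BCB-positive and 9.02 ± 2.41 FPKM in BCB-negative oocytes (SD, n = 3 oocytes each). The log2 difference was 0.56 (pooled SD 0.27), or 1.48-fold on that scale. BCB-negative oocyte 2 was the low one, and without it the difference was 0.35. The ratio of MAP2K1 to MAP2K2, both in FPKM, was 12.7, 13.8 and 10.4 in BCB-positive oocytes and 11.9, 22.4 and 13.1 in BCB-negative oocytes, and overlapped between the classes.

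The counts of both genes carried a sign of shared reads. Expected counts of MAP2K1 were not whole in any oocyte and those of MAP2K2 in 5 oocytes, whereas their sum was whole, to within 0.015, in BCB-positive oocytes 1, 2 and 3 and in BCB-negative oocyte 2. Some reads were thus divided between these 2 genes, which have similar sequences, and how many is not given by the files. A small error in that division weighs more on MAP2K2, with 133 to 340.0 counts an oocyte, than on MAP2K1, with 2279 to 3811. The level of MAP2K2 is therefore uncertain. The sum of both genes differed by 0.32 on the log2 scale. MAP2K1 makes up most of that sum, which therefore cannot show whether the difference of MAP2K2 holds. Sharing within the pair did not account for every part count. In BCB-negative oocyte 3 MAP2K2 had a whole count of 210.0, while MAP2K1 had 2427.9. In BCB-negative oocyte 1 the counts of 2279.04 and 216.68 did not sum to a whole number. The source of these remaining parts was not tested. MAP2K1 also overlaps SNAPC5 in the Sscrofa11.1 gene table. SNAPC5 had at most 19.2 FPKM, and whether counting used strand is not given in the sources used here.

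MAPK3 was barely present. Its expected count was 0, 1 and 1 in BCB-positive oocytes and 1, 0 and 0 in BCB-negative oocytes. Scaled to depth as CPM, in which the counts of a library sum to 1000000, these 3 counts in all amount to 0.079 CPM in BCB-positive oocytes (95% exact Poisson interval 0.0096 to 0.286) and 0.045 CPM in BCB-negative oocytes (0.0011 to 0.249), intervals that cover counting error only. No fold is given between the classes, since both fell at or under 3 counts. The sequence listed for MAPK3 was a predicted transcript of 1056 bases, so reads from other parts of its mRNA could not be counted there.

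Of the RSK genes, RPS6KA3 (RSK2) was the higher one and was higher in BCB-positive oocytes. RPS6KA3 stood at 8.78, 10.1 and 9.78 FPKM in BCB-positive oocytes, against 5.19, 5.81 and 7.85 FPKM in BCB-negative oocytes. Every BCB-positive oocyte lay above every BCB-negative oocyte, by a margin of 8.78 against 7.85 FPKM at the closest. The means were 9.54 ± 0.67 FPKM in BCB-positive and 6.28 ± 1.39 FPKM in BCB-negative oocytes (SD, n = 3 oocytes each). The log2 difference was 0.55 (pooled SD 0.20), or 1.46-fold on that scale, and 0.53 without BCB-positive oocyte 3. Class sums of 864 and 500.0 counts gave 34.2 CPM in BCB-positive oocytes (95% exact Poisson interval 32.0 to 36.6) and 22.3 in BCB-negative oocytes (20.4 to 24.4). These intervals cover counting error only and leave out the spread between oocytes, so they do not bear on the class difference. All counts of RPS6KA3 were whole, and all were assigned to 1 of its 2 annotated transcripts, that of 3639 bases.

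RPS6KA1 (RSK1) was low in all but one oocyte. RPS6KA1 had 0.78, 0.67 and 0.80 FPKM in BCB-positive oocytes, against 0.89, 0.80 and 2.62 FPKM in BCB-negative oocytes. BCB-negative oocyte 3 held 58 counts and the other oocytes 17 to 23, and only with that oocyte did the mean of all 6 reach 1 FPKM. Its log2 difference was -0.40 (pooled SD 0.40), and -0.08 without BCB-negative oocyte 3. Setting RPS6KA3 over RPS6KA1 within an oocyte, a ratio chosen after the values were seen, gave 11.3, 15.0 and 12.2 in BCB-positive oocytes and 5.83, 7.26 and 3.00 in BCB-negative oocytes. These ratios did not overlap between the classes, but their divisor was 17 to 58 counts.

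BRAF varied little between oocytes, at 7.61, 8.57 and 5.86 FPKM in BCB-positive oocytes, against 6.39, 6.98 and 5.20 FPKM in BCB-negative oocytes. BCB-positive oocyte 3 fell among the BCB-negative oocytes, so the classes overlapped. The log2 difference was 0.21 (pooled SD 0.22), and 0.34 without BCB-positive oocyte 3, where the classes were apart. Its relative ARAF was higher than BRAF in every oocyte, with 12.7, 13.9 and 9.77 FPKM in BCB-positive oocytes, against 16.9, 9.25 and 11.2 FPKM in BCB-negative oocytes. The ratio of ARAF to BRAF was 1.65 ± 0.028 in BCB-positive and 2.04 ± 0.67 in BCB-negative oocytes (SD, n = 3 oocytes each) and overlapped. MOS exceeded BRAF by 242-fold to 645-fold in FPKM, by oocyte.

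BRAF was the only one of the 7 genes with counts on several transcripts. The 3 annotated transcripts, 5084, 5165 and 5203 bases long, took very different shares from one oocyte to the next. The 5165-base transcript had 41.5%, 50.9% and 42.1% of the BRAF signal in BCB-positive oocytes, and 0%, 100% and 66.7% in BCB-negative oocytes. The 5203-base transcript had 0%, 37.1% and 27.9% in BCB-positive oocytes and was listed in no BCB-negative oocyte. The remaining share, 58.5%, 12.0% and 30.1% in BCB-positive and 100%, 0% and 33.3% in BCB-negative oocytes, belonged to the 5084-base transcript. Each of the 3 transcripts overlapped between the classes. A lone transcript took all the signal in BCB-negative oocyte 1 and another in BCB-negative oocyte 2, on 244 and 273 counts. With such similar lengths and so few counts, the division between transcripts is uncertain.

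**Figure D2:**
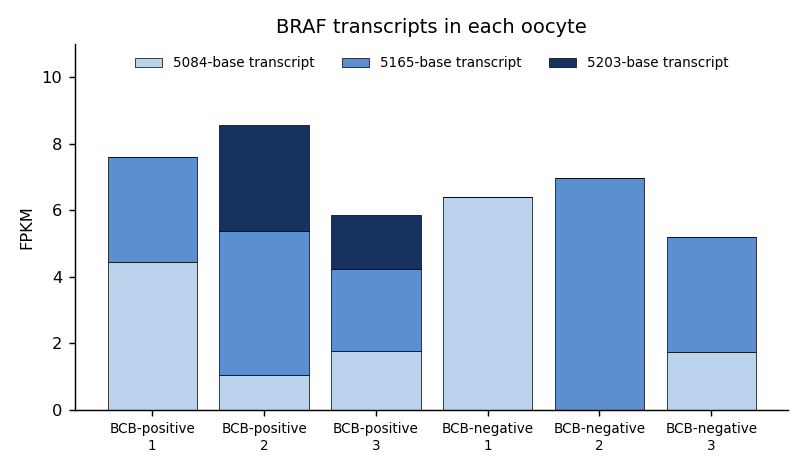
FPKM of the 3 annotated BRAF transcripts in each oocyte, stacked, on a linear axis from 0. Gene totals lie between 5.20 and 8.57 FPKM, while the make-up changes from oocyte to oocyte, with only the 5084-base transcript in BCB-negative oocyte 1 and only the 5165-base transcript in BCB-negative oocyte 2.

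Set side by side per length, the mean FPKM over all oocytes ran from MOS (2555) through MAP2K1 (149.98), MAP2K2 (11.3), RPS6KA3 (7.91), BRAF (6.77) and RPS6KA1 (1.09) to MAPK3 (0.06). The ranges of MOS, of MAP2K1 and of RPS6KA1 were each apart from those of their neighbours in this order. MAP2K2 exceeded RPS6KA3 in all 6 oocytes, although their ranges overlapped. RPS6KA3 exceeded BRAF in 4 of 6, namely in 3 BCB-positive oocytes and 1 BCB-negative oocyte, so these genes did not differ in level beyond the spread. Among the 11495 genes whose mean reached 1 FPKM, MOS lay at percentile 99.8 of mean level, MAP2K1 at 92.5 and BRAF at 43.2. MOS exceeded MAP2K1 by 10.9-fold to 24.2-fold, depending on the oocyte.

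Of the 7 genes, 6 reached a mean of 1 FPKM, and 2 of these, MAP2K2 and RPS6KA3, were higher in all BCB-positive than in all BCB-negative oocytes, while 0 were lower. Over all 11495 genes, 7.44% were higher without overlap and 4.03% lower without overlap. When a difference of at least 1.5-fold on the log2(FPKM + 1) scale was asked for as well, 0 of the 6 genes qualified as higher and 0 as lower, beside 5.75% and 2.66% of all genes. That split depended on scaling, at 4.54% higher and 3.70% lower with size factors and 7.12% higher and 1.96% lower with a common sum. MAP2K2 and RPS6KA3 lay just under that limit, and both passed it with a pseudocount of 0.1 FPKM, after scaling every library to a common sum and in CPM, where 6.08%, 7.12% and 6.06% of all genes were higher by the same rule. The median difference of the 6 genes was 0.26, against 0.11 for all genes. Scaling every library to a common sum, with all oocytes kept, made 4 of 6 higher without overlap, where 8.97% of all genes were. MAP2K1 and BRAF were the genes added. Without BCB-positive oocyte 3, MAP2K1 and BRAF likewise joined the genes without overlap, making 4 of 6. There 11.5% of all genes were higher without overlap, with fewer oocytes to order. The median of the 6 genes was then 0.39, against 0.05 for all genes. With any other oocyte left out, 2 of 6 were higher without overlap, where 12% to 17.2% of all genes were. Without BCB-positive oocyte 2 the median of the 6 genes was 0.15, against 0.13 for all genes.

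**Figure D3:**
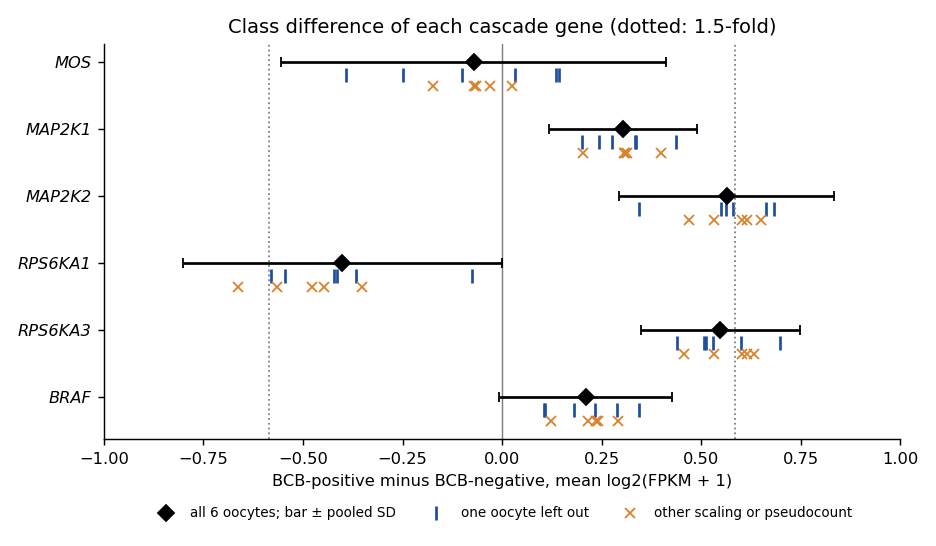
BCB-positive minus BCB-negative difference of mean log2(FPKM + 1) for 6 cascade genes, with the pooled SD between oocytes, the values with each oocyte left out and those under other scalings or pseudocounts; dotted lines mark 1.5-fold. MAP2K2 (0.56) and RPS6KA3 (0.55) lie close to the upper line, MOS straddles 0, and RPS6KA1 moves from -0.40 to -0.08 when BCB-negative oocyte 3 is left out.

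The rest of the pathway was described from a list of 113 genes in 8 roles, of which 92 were matched in the files and 57 reached a mean of 1 FPKM. Of these 57, 2 were higher in BCB-positive oocytes without overlap and by at least 1.5-fold, KIT and SPRED1, and 0 were lower, beside 5.75% and 2.66% of all genes. At any size of difference, 5 of the 57 were higher without overlap and 2 lower, beside 7.44% and 4.03% of all genes. The median difference of the 57 was 0.11, and 0.06 without BCB-positive oocyte 3. KIT is the receptor for the growth factor made by granulosa cells for the oocyte. KIT stood at 5.03, 9.37 and 8.59 FPKM in BCB-positive oocytes, against 2.81, 4.32 and 3.61 FPKM in BCB-negative oocytes, a log2 difference of 0.89 (pooled SD 0.34). SPRED1, which restrains RAS by bringing the RAS inhibitor NF1 to the membrane, had 19.2, 8.36 and 21.2 FPKM in BCB-positive oocytes, against 7.53, 3.09 and 6.28 FPKM in BCB-negative oocytes. BCB-positive oocyte 2 lay only just above BCB-negative oocyte 1, and the log2 difference was 1.35 (pooled SD 0.62). Its relative SPRED2 went the other way without overlap, by -0.29.

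Upstream of the kinases, 6 receptors and adaptors were compared, and 1 qualified, KIT. The most abundant were GAB1, IGF1R and SOS1, at means of 13.2, 10.6 and 5.85 FPKM, with differences of 0.12, 0.17 and 0.16. EGFR was listed in a single oocyte at 0.03 FPKM, and GRB2, the adaptor that links receptors to SOS1, in a single oocyte at 1.03 FPKM. Among 11 genes of RAS and its regulators, 1 qualified, SPRED1. RASA1, which switches RAS off, was the most abundant and was higher without overlap by 0.47, which dropped to 0.21 when BCB-positive oocyte 3 was left out. The small GTPases RAP1B and RAP1A averaged 46.3 and 30.3 FPKM and differed by 0.11 and 0.46, both with overlap. In the group of other RAF kinases and scaffolds 0 of 8 qualified. YWHAB, a 14-3-3 protein that binds RAF, LAMTOR3, a scaffold of MAP2K1, and PEBP1, an inhibitor of RAF signalling, led that group at 225, 124 and 59.8 FPKM.

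Of the other ERK and RSK kinases 3 were compared and 0 qualified. MKNK1, a kinase of the cap-binding protein eIF4E that ERK activates, averaged 43.6 FPKM and differed by 0.19, and MKNK2 averaged 2.44 FPKM and differed by -0.63, both with overlap. Among 10 phosphatases 0 qualified. PPP2CA and PPP2CB, the catalytic subunits of protein phosphatase 2A, averaged 199 and 54.1 FPKM, and the scaffold subunit PPP2R1A 35.5 FPKM. PPP2CB was higher without overlap by 0.47 (pooled SD 0.12) and DUSP14 lower without overlap by -0.41 (pooled SD 0.19). Of the dual-specificity phosphatases, DUSP6, which acts on ERK, averaged 0.50 FPKM and DUSP7 15.5 FPKM.

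Of 9 targets and effectors 0 qualified. CDK2AP2, known in mouse eggs as a MAP kinase substrate that helps to keep the metaphase spindle, had a level near that of MOS. CDK2AP2 stood at 2592, 1941 and 1164 FPKM in BCB-positive oocytes, against 2203, 3096 and 2518 FPKM in BCB-negative oocytes. The classes overlapped, with a log2 difference of -0.52, and of -0.20 without BCB-positive oocyte 3, which was lowest. RPS6, the ribosomal protein that S6 kinases phosphorylate, and CPEB1, which controls the translation of stored mRNAs such as that of MOS, averaged 785 and 48.3 FPKM and differed by -0.01 and -0.14. FBXO43 (EMI2), which RSK phosphorylates in frog eggs, averaged 45.05 FPKM, with a difference of 0.35 from all oocytes and of 0.07 once BCB-positive oocyte 3 was left out. Among 8 parallel MAP kinase genes 0 qualified. MAP2K4, an activator of JNK, MAPK14 (p38) and MAPK6 (ERK3) averaged 115, 40.5 and 26.1 FPKM. MAPKAPK2, a kinase downstream of p38, was higher without overlap by 0.38, and its counts were not whole in any oocyte. Of the other MAP3 kinases 2 were compared, MAP3K3 at 16.5 FPKM and MAP3K4 at 12.5 FPKM, and 0 qualified. They differed by -0.06 and 1.03 (pooled SD 0.17 and 0.93), both with overlap. The counts of MAP3K4 were not whole in any oocyte.

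**Figure D4:**
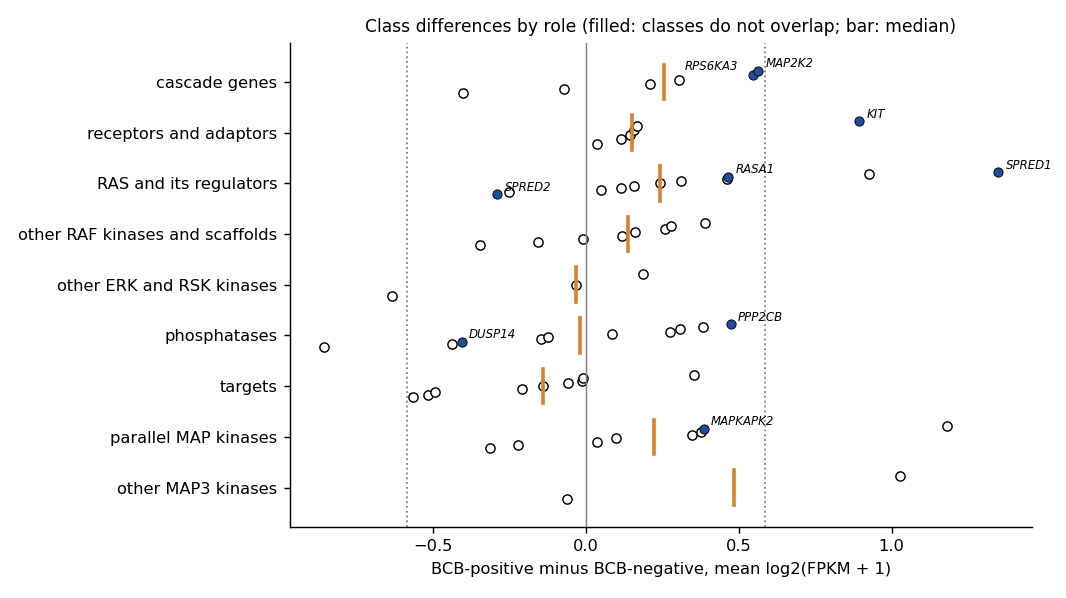
BCB-positive minus BCB-negative difference of mean log2(FPKM + 1) for each gene whose mean reached 1 FPKM, by role; filled points are genes whose classes do not overlap, orange bars medians and dotted lines 1.5-fold. KIT and SPRED1 are the filled points beyond 1.5-fold, and the medians of the 3 largest role groups lie between -0.14 and 0.24.

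The genes whose levels followed MOS most closely across the 6 oocytes were MFSD13A, PLEKHM2 and NAP1L3, with Pearson correlations of log2(FPKM + 1) of 0.994, 0.990 and 0.984. They were taken from 5600 genes that had a symbol and averaged 5 FPKM or more, of which 10 reached a correlation of 0.95, so such values are a description over 6 points that share libraries and depth. MFSD13A, a predicted membrane transporter, had 48.5, 28.9 and 23.4 FPKM in BCB-positive oocytes, against 26.4, 34.1 and 45.1 FPKM in BCB-negative oocytes. BCB-positive oocyte 1 was highest, BCB-negative oocyte 3 next and BCB-positive oocyte 3 lowest. These places were the same for MOS, which follows from picking MFSD13A by its correlation with MOS.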

How the data were processed

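Oocyte mRNA was reverse transcribed from a poly(dT) primer (24 nt) and amplified by PCR before sequencing, per the labels' protocols. No molecular identifiers are named, so intervals and floors cover counting error alone. BWA, Cufflinks, RSEM and Sscrofa10.2 appear in the submitters' processing notes, with no role or version. The deposited files list expected counts, which need not be whole, and FPKM, which the authors scaled to length and depth, per gene and transcript. Unlisted genes were set to 0.

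Symbols, and which genes overlap, came from the Sscrofa11.1 gene table, in which 13936 of 19300 gene IDs matched, and no coordinates are printed. Differences were BCB-positive minus BCB-negative means of log2(FPKM + 1), which understate low genes, computed with Python 3.11.15, numpy 2.4.6 and pandas 2.3.3. Genes whose mean reached 1 FPKM were compared. A gene qualified where the classes did not overlap and lay at least 1.5-fold apart. With single cells and no animal named, no p-value was computed.

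Some genes under the naming rule are not reported here. The members and lists were chosen with earlier results of these data known. Besides the 7 genes, the naming rule took ARAF, the 3 most abundant of each role, those that qualified, the 3 most like MOS, the leading marker of each list and genes that overlap a member. EGFR, GRB2, the unmatched granulosa markers, STAR, CD14, PTPRC, SPRED2, DUSP14, DUSP6, DUSP7, MAPKAPK2 and FBXO43 were named after their values were seen. Alternatives were a pseudocount of 0.1 FPKM, size factors, a common sum, CPM from the counts, the ratio of class means, other filters and leaving out each oocyte. The sum of MAP2K1 and MAP2K2 was added after seeing the data.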

Additional observations from a re-analysis of the deposited data

How the results depend on the processing

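The differences of MOS, MAP2K1, MAP2K2, RPS6KA1, RPS6KA3 and BRAF were followed under each alternative. They moved by less than the pooled SD between oocytes under the other scalings, the other pseudocount and the ratio of class means. Leaving out 1 of the 3 oocytes of a class cannot move a difference by that SD, so those runs are not set against it. With one oocyte left out the differences ran from -0.39 to 0.14 for MOS, 0.20 to 0.44 for MAP2K1 and 0.35 to 0.68 for MAP2K2. They ran from -0.58 to -0.08 for RPS6KA1, 0.44 to 0.70 for RPS6KA3 and 0.10 to 0.34 for BRAF. The number of cascade genes higher by at least 1.5-fold without overlap was 0 as reported, and 2 with a pseudocount of 0.1 FPKM, 2 with a common sum and 2 with CPM, beside 699, 818 and 697 higher and 333, 225 and 311 lower among all genes. With size factors it was 0, beside 522 higher and 425 lower among all genes. It ran from 0 to 2 with one oocyte left out, where fewer oocytes have to be ordered, with 2 when BCB-negative oocyte 3 was missing. In that last case 8.82% of all genes were higher by the same rule. With one oocyte left out the median of the cascade genes ran from 0.15 to 0.39. Higher without overlap at any size were 4 cascade genes with a common sum, beside 8.97% of all genes. That count was 2 with size factors, with CPM and with a pseudocount of 0.1 FPKM. For the pathway list, the count of lower genes was 1 with size factors, and the median was 0.014 with size factors and 0.20 with a common sum, beside 0.02 and 0.19 for all genes. With one oocyte left out the list gave 3 to 6 higher and 0 to 5 lower genes, both highest without BCB-positive oocyte 1, and a median of 0.05 to 0.19. Without BCB-positive oocyte 1, 13.7% of all genes were higher and 6.92% lower. Without BCB-positive oocyte 3 the list gave 4 higher and 1 lower, beside 7.19% and 4.4% of all genes. Over all genes those counts ran from 826 to 1574 higher and from 506 to 795 lower, and over genes averaging at least 5 FPKM they were 411 and 192. Share differences of the BRAF transcripts changed sign with the oocyte left out, from -38.5 to 11.5 points for the 5165-base transcript and from -33.1 to 16.9 points for the 5084-base one, and ran from 13.9 to 32.5 points for the 5203-base one. No difference was computed for MAPK3, with at most 3 counts a class. No paired analysis was possible because no test was made and the labels give same-numbered oocytes no shared source. Depth limits MAPK3 and RPS6KA1.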
